A study of Mus musculus with 1507 samples.

Results

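This account compares 93 single mouse embryonic stem (ES) cells sorted as G1 with 93 sorted as G2/M, 186 of the 1507 samples of the series. It asks which transcripts differed between cells sorted as before and cells sorted as after DNA replication. The sort was by DNA content, and the purity of the sorted phases was not tested. Every sample carrying the label G1 or G2M as a single cell was taken, no cell was left out, and the transcripts of a gene were summed by gene name. All were 5G6GR cells, a mouse ES cell line that carries a randomly integrated Gata6 transgene fused to the hormone-binding part of the glucocorticoid receptor and was grown here without induction, in serum and LIF with puromycin and blasticidin on gelatin. Living cells were stained with a Hoechst dye that binds DNA, propidium iodide took out dead cells, and single cells went by DNA content into lysis buffer in 96-well plates. Values of 91 S phase cells, of 9 wells that each received 1 µl of a lysate of 180 G1 cells (technical repeats of 1 lysate) and of 92 unsorted ES cells at 0 h of a differentiation series are given beside them. Since no label ties a cell to a culture or a sort, each phase counts as 1 sample: no test was made, SDs describe the spread of cells, and the wells of the phases overlap in name, so that phase and plate cannot be told apart.

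Cell division is driven by waves of transcription. Genes for loading and firing replication origins and for making DNA are under the control of E2F factors and are switched on around the start of S phase, whereas genes for chromosome segregation and cytokinesis are switched on in G2 by factors bound to CCAAT boxes and to the cell cycle homology region, and their mRNAs and proteins are cleared during and after mitosis. Mouse ES cells have a short G1 phase and are known for high activity of cyclin-dependent kinases through the whole cycle.

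Each library was measured by RamDA-seq, a total RNA method for single cells that copies RNA with oligo-dT and not-so-random primers, and values are TPM, estimated transcript levels per length that have the same sum in every cell. They carry no read depth, so the depth of a cell is unknown here and a level is a share of the cell's RNA, not an amount. A gene counted as detected at 1 TPM or more, and G1 cells had a median of 14050 detected genes (lowest 11285, highest 15309) against 14830 in G2/M cells (lowest 11593, highest 15947). Detected genes lay below the lower quartile of the phase by over 1.5 interquartile ranges in 5 G1 cells and 8 G2/M cells. The ES cell regulators *Pou5f1*, *Sox2*, *Nanog*, *Zfp42* and *Esrrb* averaged 70.5 to 226 TPM in G1 cells and 83.5 to 214 TPM in G2/M cells, and the primitive endoderm markers *Gata4*, *Sox7*, *Sox17*, *Dab2* and *Pdgfra* at most 2.07 TPM in G1 cells and 2.503 TPM in G2/M cells. *Gata6* averaged 51.9 TPM in G1 cells and 56.3 TPM in G2/M cells, and the transgene can give these reads. Not all endoderm markers were low. A wider list of 13, these markers among them, summed to a mean of 226 TPM in G1 cells and 219 TPM in G2/M cells. Of that list 5 members were of at least 10 TPM.

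*Ung* and *Mcm6*, the genes taken as marks of G1 cells, were both higher in G1 cells. *Ung* encodes the uracil-DNA glycosylase that removes uracil from DNA. Its level was 12.7 to 109.5 TPM (median 50.03) in G1 cells, against 1.55 to 66.8 TPM (median 14.02) in G2/M cells. All G1 cells but 1 (92 of 93) lay above the G2/M median, while the ranges overlapped. The means were 52.8 ± 23.8 TPM in G1 cells and 16.6 ± 11.8 TPM in G2/M cells (SD over cells, n = 93 each), a log2 fold of 1.61 on the scale of mean TPM + 1, and the G1 cell was the higher of the 2 in 92.5% of all G1 and G2/M pairs (a pair share, in which ties are split evenly). S cells lay between them at 30.2 TPM, and the wells of G1 lysate held 46.6 to 83.01 TPM (mean 56.04). *Mcm6* encodes a subunit of the replicative helicase. It stood at 14.6 to 293 TPM (median 128) in G1 cells, against 40.4 to 219 TPM (median 77.2) in G2/M cells (means 136 ± 49.8 and 81.4 ± 27.9 TPM), with a log2 fold of 0.73 and a pair share of 84.7%. Unlike *Ung*, its mean in S cells (125 TPM) was nearer to that of G1 cells, and 2 G1 cells fell below the lowest G2/M cell. By *Ung* the phases were set apart further than by *Mcm6*, as the plot of levels in every sorted cell shows.

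**Figure D1:**
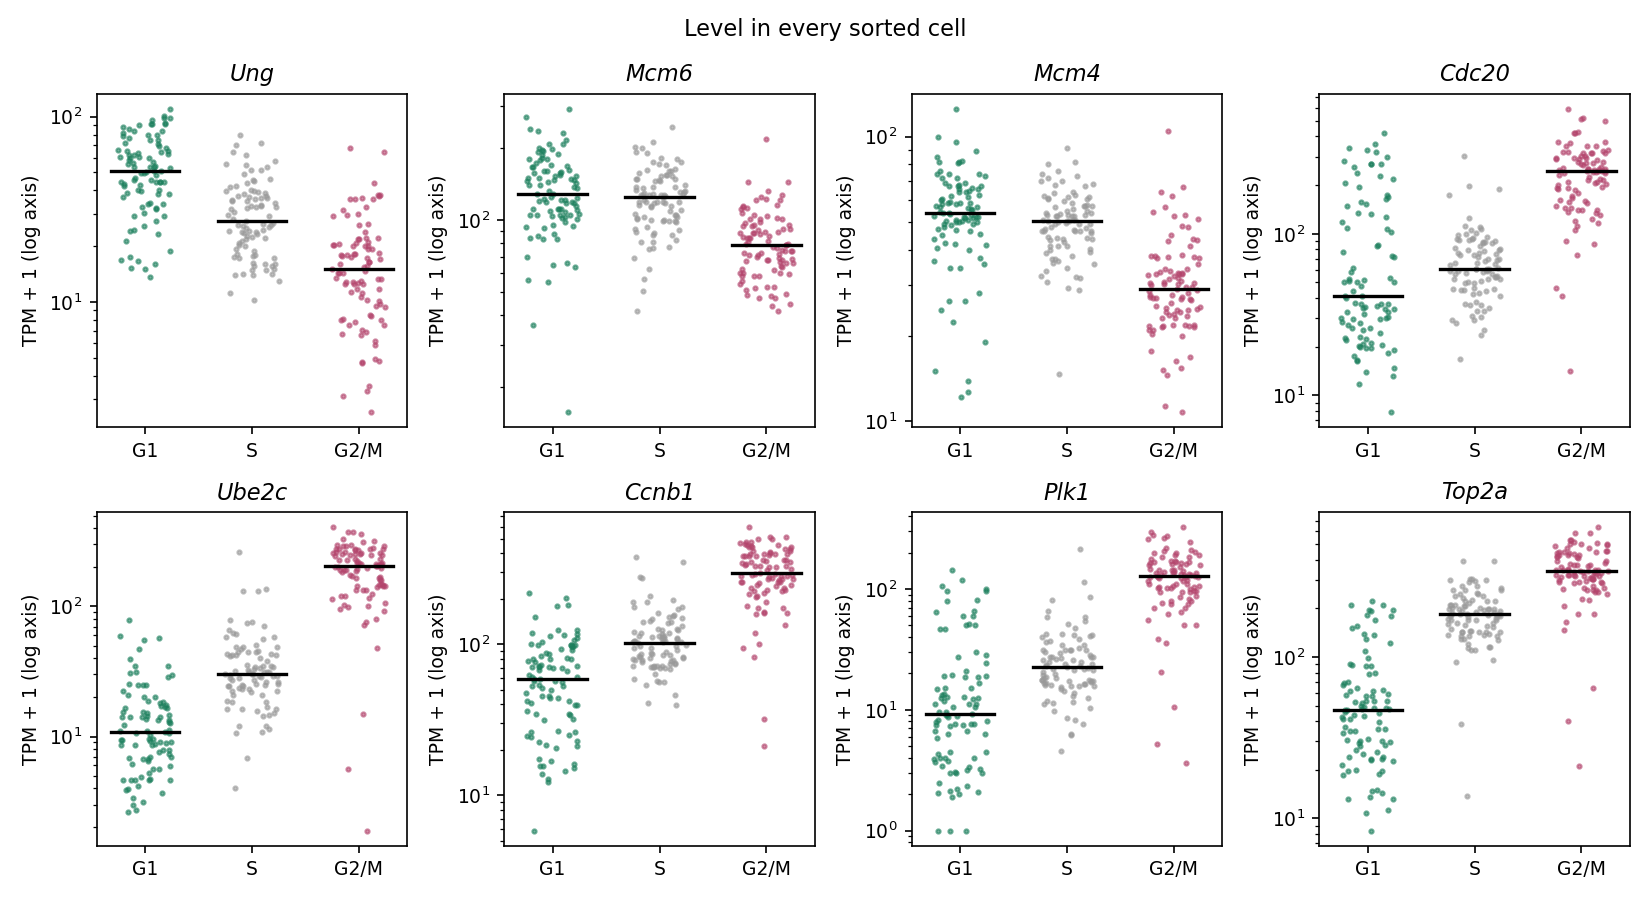
Level of 8 genes in every sorted cell (points, TPM + 1 on a log axis) in G1, S and G2/M cells, with the median as a bar. *Ung*, *Mcm6* and *Mcm4* have their highest mean in G1 cells, *Ube2c*, *Ccnb1*, *Plk1* and *Top2a* climb through the phases by mean, and *Cdc20* is spread widely among G1 cells (median 40.2 TPM, highest 419.7 TPM) with a lower mean in S cells.

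Most of the *Ung* signal came from a pair of protein-coding transcripts. *Ung-001* (1985 bases, chr5:114130386-114139323 on mm10) had 18.6 TPM in G1 cells and 3.85 TPM in G2/M cells, and the short model *Ung-005* (609 bases) 24.2 TPM in G1 cells and 7.47 TPM in G2/M cells. *Ung-003* differed less, with 3.004 TPM in G1 cells and 2.22 TPM in G2/M cells. For *Mcm6* (chr1:128331590-128359664) the full transcript *Mcm6-001* had 94.3 TPM in G1 cells and 56.7 TPM in G2/M cells, and the retained-intron model *Mcm6-003* 35.6 TPM in G1 cells and 21.6 TPM in G2/M cells. Among genes of at least 10 TPM over the 277 sorted cells, the pattern most like *Ung* was that of *Mcm4* (Spearman's rho 0.68), followed by *Mcm6* (0.65), *Gm43558* (0.56), *Mcm2* (0.51) and *Adarb2* (0.50). Those most like *Mcm6* were *Mcm4* (0.71), *Mcm5* (0.67), *Ung* (0.65), *Mcm3* (0.64) and *Rpa1* (0.60). Cells share the TPM scale and each is 1 library, so these values are descriptions. *Ung* and *Mcm6* also followed each other within G1 cells (rho 0.64, n = 93) and less so within G2/M cells (0.37, n = 93).

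Across all genes the difference ran mainly one way. Of 20773 genes with at least 1 TPM in at least 10% of the 186 cells, 13 (0.0626%) were at least 2-fold higher in G1 cells and 163 (0.785%) at least 2-fold lower. With the wells of G1 lysate in place of single G1 cells, 2 of the 13 and 131 of the 163 were still past 2-fold in the same direction. At 1.5-fold the counts were 137 higher (0.66%) and 613 lower (2.95%), and of 58486 transcripts 36 were at least 2-fold higher (0.0616%) and 343 lower (0.586%). The G1 cell was the higher one in at least 65% of pairs for 218 genes (1.05%) and in at most 35% for 2260 (10.9%). The median gene had a log2 fold of −0.09 (quartiles −0.23 and 0.04), and 68.98% of all genes had a lower mean in G1 cells. Among the 6952 genes of at least 10 TPM, 4 were at least 2-fold higher in G1 cells (0.0575%) and 107 lower (1.54%), and 46 (0.662%) and 235 (3.38%) at 1.5-fold. In that set the G1 cell was the higher one in at least 65% of pairs for 191 genes (2.75%) and in at most 35% for 1328 (19.1%). A fold on this scale understates the change of low genes. Of the 163 genes lower in G1 cells, 117 are annotated as protein-coding and 62 stand in one of the gene lists described here. Those lists were chosen with earlier results of these data known, so the counts in them describe the lists and the percentages above are their background.

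Replication genes leaned toward G1 over G2/M cells, by less than mitotic genes leaned away. Of the 23 licensing and origin firing genes, 0 were past 2-fold in either direction and 3 at least 1.5-fold higher, with a median log2 fold of 0.20. The mean was higher in G1 cells for 16 of them and lower for 7, where 31.02% of all genes had a higher mean. Their sum was highest in S cells, with means of 1152 TPM in G1, 1278 TPM in S and 977 TPM in G2/M cells. *Cdc6*, which loads the helicase on origins, averaged 11.8 TPM in G1 cells and 5.64 TPM in G2/M cells (log2 0.95, pair share 67.1%). The helicase subunits followed in one order on the log2 scale: *Mcm4* 0.79, *Mcm6* 0.73, *Mcm2* 0.52, *Mcm3* 0.42, *Mcm5* 0.40 and *Mcm7* 0.22. Their pair shares ran between 85.02% for *Mcm4* and 66.2% for *Mcm7*, although the 6 proteins form 1 ring. *Mcm3*, *Mcm5* and *Mcm7* peaked in S cells, with means of 123, 111 and 121 TPM there. *Dbf4*, the activator of the origin-firing kinase *Cdc7*, went against its list and averaged 42.96 TPM in G1 cells and 81.3 TPM in G2/M cells (log2 −0.90), while *Cdc7* itself stood at 11.8 TPM in G1 cells and 11.01 TPM in G2/M cells.

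Of 36 DNA synthesis and repair genes, *Ung* alone was past 2-fold, and the list median was 0.07. The mean was higher in G1 cells for 24 of them and lower for 12. Their sum was highest in S cells, with means of 1794 TPM in G1, 2070 TPM in S and 1589 TPM in G2/M cells. *Uhrf1*, which guides DNA methylation to new strands, averaged 161 TPM in G1 cells, 126 TPM in S cells and 94.5 TPM in G2/M cells. *Chaf1b*, a subunit of the histone chaperone that works behind the fork, averaged 32.8 TPM in G1 cells, 28.1 TPM in S cells and 18.9 TPM in G2/M cells. The sliding clamp *Pcna* (99.7 TPM in G1 cells, 129 TPM in S cells and 81.5 TPM in G2/M cells) was highest in S cells, as was *Rfc4* of the clamp loader (28.2 TPM in G1 cells, 49.9 TPM in S cells and 36.9 TPM in G2/M cells). *Rrm2*, a subunit of ribonucleotide reductase, had 62.7 TPM in G1 cells and 59.9 TPM in G2/M cells. Among the 22 G1 cyclin, E2F and Rb family genes described the median was 0.00, with none past 2-fold: *E2f1* was the highest at 8.56 TPM in G1 cells and 5.26 TPM in G2/M cells (log2 0.61, pair share 75.8%), and *Rbl1*, encoding the pocket protein p107, the lowest at 5.74 TPM in G1 cells and 8.86 TPM in G2/M cells (log2 −0.55). The G1 cyclins *Ccne1* (22.4 TPM in G1 cells and 16.7 TPM in G2/M cells) and *Ccnd1* (12.7 TPM in G1 cells and 10.5 TPM in G2/M cells) overlapped broadly, with pair shares of 61.4% and 52.3%.

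Among the 15 named genes with the largest folds toward G1, 7 had few or no counts (at most 22) in bulk RNA of the same cell line, and most of these are best known from other tissues. They were *Tnf* and *Il6* (cytokines), *Igkv1-110* (an immunoglobulin segment), *Cd3g* (a T cell receptor subunit), *Ins2* (insulin), *Apob* (an apolipoprotein) and *Hprt* (purine salvage). *Setd1a*, a histone methyltransferase, is given with them because its counts also differed between bulk and low-input RNA; the group was made after its values were seen. *Il6* had 43.7 to 928 TPM (median 297) in G1 cells, against 37.01 to 381 TPM (median 153) in G2/M cells (log2 1.04, pair share 91.9%). *Ins2* averaged 234 TPM in G1 cells, 150.3 TPM in S cells and 120.0 TPM in G2/M cells, and *Tnf* 43.8 TPM in G1 cells, 25.5 TPM in S cells and 20.1 TPM in G2/M cells. All 8 had their lowest mean in G2/M cells, and the log2 folds of G1 over G2/M cells ran between 0.86 (*Apob*) and 1.09 (*Tnf*). In the wells of G1 lysate all 8 averaged less than in single G1 cells: *Il6* averaged 212 TPM, *Ins2* 162 TPM and *Tnf* 25.4 TPM. Estimated counts of ES cell RNA from another experiment of the series were set beside these levels: 3 RamDA-seq libraries of 10 pg RNA, and 3 libraries of bulk rRNA-depleted RNA, whose total counts were larger. *Il6* had 924, 942 and 833 counts in the 10 pg libraries against 0, 2 and 1 in the bulk libraries. *Ins2* had 400.0, 396 and 374 counts in the 10 pg libraries against 0, 0 and 0 in the bulk libraries, *Hprt* 152, 156 and 185 counts in the 10 pg libraries against 0, 4 and 1 in the bulk libraries, and *Apob* 530, 619 and 683 counts in the 10 pg libraries against 20, 16 and 22 in the bulk libraries. *Ung*, by contrast, had 439, 264 and 431 counts in the 10 pg libraries against 455, 470.1 and 504 in the bulk libraries. *Setd1a* was present in bulk but at a lower share, with 3386, 3041 and 3072 counts in the 10 pg libraries against 216, 239 and 215 in the bulk libraries. These 8 genes make up 3 of the 4 genes of at least 10 TPM that were 2-fold higher in G1 cells, *Ung* being the fourth. Their source, and its part in the count of genes higher in G1 cells, was not tested.

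Of the remaining named genes higher in G1 cells, *Hist1h1e* and *Hist1h1d* encode linker histones, *Icam1* a cell adhesion molecule, and *Gm44206* is annotated as an antisense gene. *Rpl17-ps5* and *Pgk1-rs7* are copies of other genes, and the split of reads between a copy and its parent is uncertain. *Icam1* averaged 26.1 TPM in G1 cells and 13.8 TPM in G2/M cells, with 29.8 TPM in the lysate wells. *Gm44206* averaged 97.1 TPM in G1 cells and 53.9 TPM in G2/M cells, with 92.4 TPM in the lysate wells; without strand its reads cannot be told from those of the gene on the other strand. *Rpl17-ps5* had 23.6 TPM in G1 cells and 12.3 TPM in G2/M cells but 8.99 TPM in the lysate wells, below both. It had 0, 18.9 and 0 counts in the 10 pg libraries against 2282, 2046 and 2313 in the bulk libraries. *Hist1h1e* had 240, 257 and 257 against 2773, 2699 and 3032, and *Hist1h1d* 521, 529 and 540 against 5195, 5539 and 5705. *Icam1* (345, 343 and 352 against 411, 399 and 415), *Gm44206* and *Pgk1-rs7* differed less.

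Replication-dependent histone genes, whose mRNAs lack a poly(A) tail and are made in S phase, leaned toward G1 as a group by means over single cells. Of 61 described, 57 had a higher mean in G1 cells and 4 a lower one, where 31.02% of all genes had a higher mean, with a median log2 fold of 0.39, but only *Hist1h2af* was past 2-fold (8.45 TPM in G1 cells and 3.57 TPM in G2/M cells, with 5.85 TPM in the lysate wells). The cells of the phases overlapped almost wholly. The summed level of all 68 genes was 135 to 5170.5 TPM in G1 cells (median 408), 163 to 5715 TPM in S cells (median 824) and 97.6 to 3888 TPM in G2/M cells (median 352). The pair share of the sum was 60.7%. The G1 mean (739 TPM) stood well over the G1 median, and the G2/M mean was 546 TPM. The G1 lysate wells held 489 to 703 TPM with a mean of 576 TPM, near the G2/M mean. By family, H2B averaged 189 TPM in the lysate wells and 190 TPM in G2/M cells, and H1 80.5 and 60.8 TPM. By family, the median log2 fold was 0.67 for H1 (5 genes), 0.40 for H2A (18), 0.20 for H2B (13), 0.37 for H3 (12) and 0.40 for H4 (13). *Slbp*, which binds the stem-loop of these mRNAs, averaged 84.97 TPM in G1 cells, 89.01 TPM in S cells and 59.2 TPM in G2/M cells, and the histone mRNA processing genes, *Slbp* among them, had a list median of −0.04 and ran down to −0.56 for *Zfp473*.

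Genes of mitosis were lower in G1 cells. Of 17 mitotic cyclins and kinases 14 were at least 2-fold lower, of 18 kinetochore and chromosomal passenger genes 13, and of 23 spindle and cytokinesis genes 22, against 0.785% of all genes. No member of the 3 lists had a higher mean in G1 cells, and the list medians were −1.52, −1.32 and −1.49. Summed over their 58 genes, the level was 471 to 3295 TPM in G1 cells (median 989), 755 to 4903 TPM in S cells (median 1759) and 510.0 to 5984 TPM in G2/M cells (median 3594). No G1 cell reached the G2/M median, while 2 G2/M cells lay below the G1 median and 35 below the highest G1 cell. The lysate wells held 1006 to 1164 TPM, and unsorted 0 h cells had a median of 1644 TPM.

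**Figure D2:**
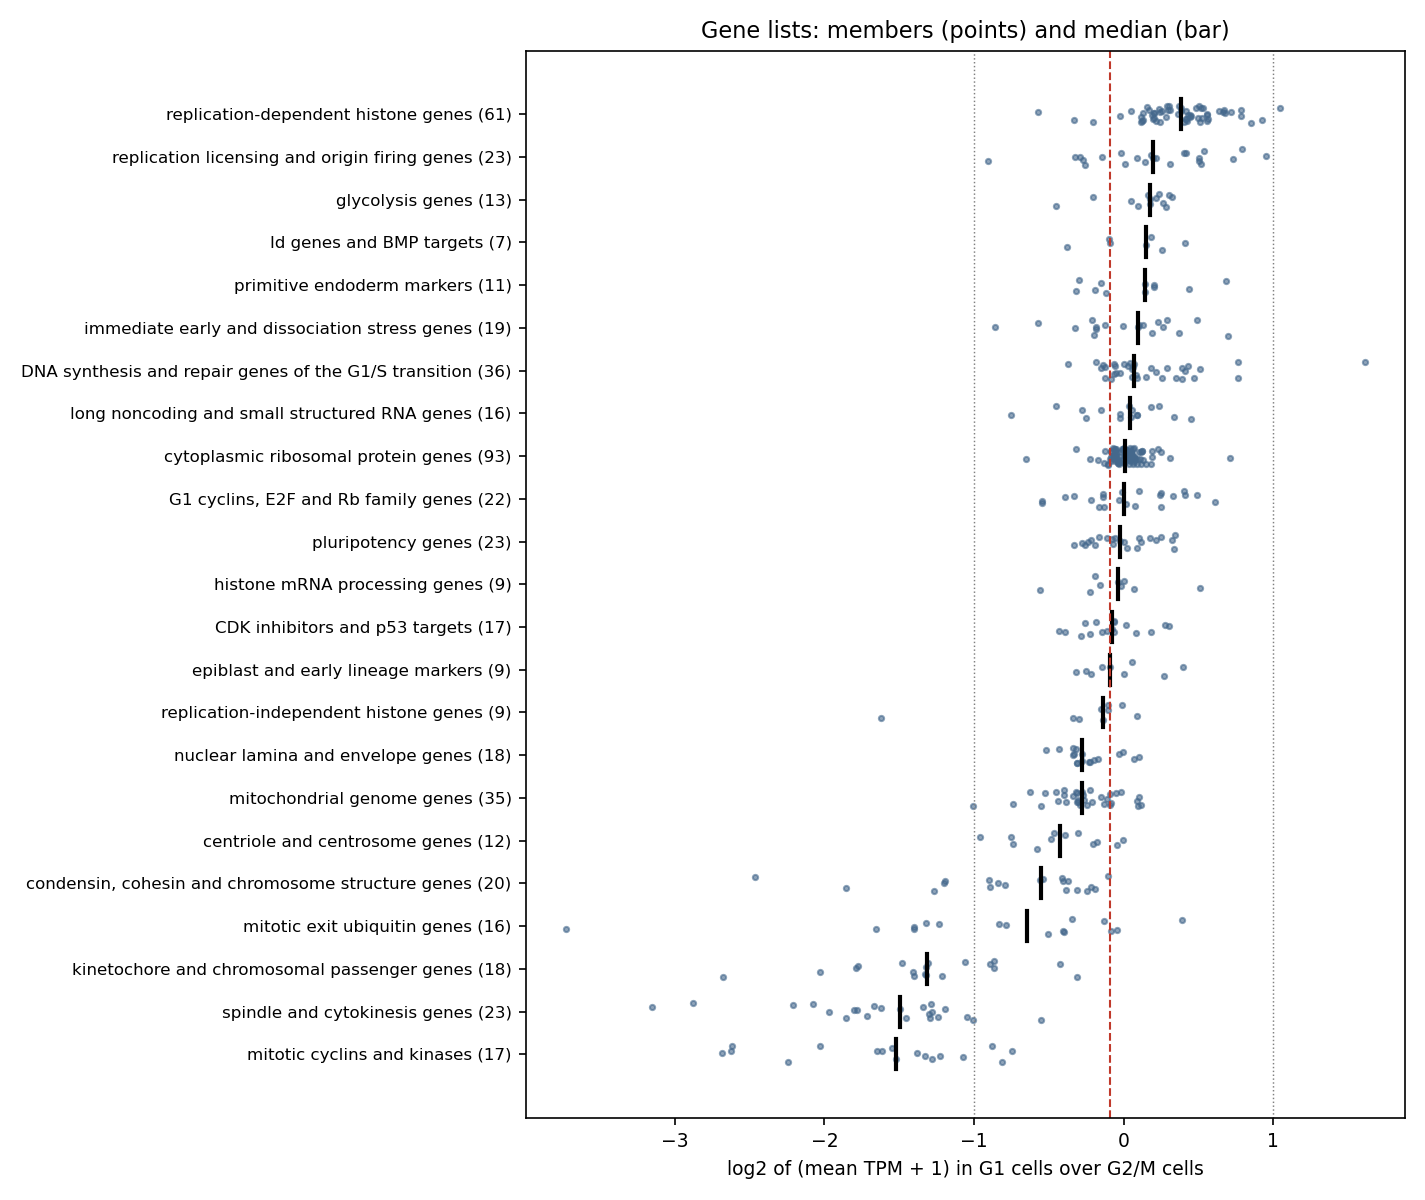
Log2 of mean TPM + 1 in G1 cells over G2/M cells for each member of 23 gene lists (points; number described in brackets) with the list median as a bar; the dashed line is the median of all 20773 genes and dotted lines mark 2-fold. The 3 mitotic lists sit at −1.52 to −1.32, and the replication-dependent histones highest at 0.39.

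*Ube2c*, the ubiquitin-conjugating enzyme of the anaphase-promoting complex, differed most. It had 1.65 to 77.5 TPM (median 9.797) in G1 cells, against 0.894 to 406 TPM (median 203) in G2/M cells (means 14.1 ± 13.6 and 199.6 ± 82.2 TPM, log2 −3.73). No G1 cell reached the G2/M median, and the G1 cell was the higher one in 2.36% of pairs. *Nusap1*, which binds spindle microtubules, stood at 0 to 47.2 TPM (median 3.21) in G1 cells, against 0.0818 to 161 TPM (median 61.98) in G2/M cells (log2 −3.15). *Prc1*, which bundles the spindle midzone, stood at 0.114 to 93.3 TPM (median 17.5) in G1 cells, against 3.22 to 317 TPM (median 152) in G2/M cells (log2 −2.88). In each of these 3 genes 2 G2/M cells lay below the G1 median and no G1 cell reached the G2/M median. The mitotic kinases *Aurka* (log2 −2.68), *Cdk1* (−2.63) and *Plk1* (−2.62) and cyclin B1, *Ccnb1* (−2.25), were among the 15 named genes. *Ccnb1* kept 4.85 to 218 TPM (median 57.4) in G1 cells, against 20.2 to 594 TPM (median 293) in G2/M cells, so that it was above 1 TPM in every G1 cell. Also named were the kinetochore gene *Cenpf* (−2.68), *Top2a*, which untangles sister chromatids (−2.47), the spindle motor *Kif11* (−2.21), the DNA helicase *Pif1* (−2.34) and the spindle gene *Fam83d* (−2.21). *Gm10184* (−2.63) and the processed pseudogene *Gm10259* (−2.57) were also among them; neither was matched to a parent here, and their values are uncertain where reads could come from one.

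Members of the mitotic lists that were not past 2-fold included *Spc24* of the kinetochore (33.5 TPM in G1 cells and 41.9 TPM in G2/M cells), *Cep55* of the midbody (25.9 TPM in G1 cells and 38.5 TPM in G2/M cells), the kinase *Mastl* (6.74 TPM in G1 cells and 11.97 TPM in G2/M cells) and *Ccnb2*, cyclin B2 (35.9 TPM in G1 cells and 63.9 TPM in G2/M cells). *Ccna2*, cyclin A2, averaged 30.3 TPM in G1 cells, 41.1 TPM in S cells and 72.4 TPM in G2/M cells. *Aurkb*, the kinase of the chromosomal passenger complex, was at 1 TPM or more in 72.04% of G1 cells (exact binomial 95% interval 61.8 to 80.9%, counting error only) and in 97.8% of G2/M cells (92.4 to 99.7%), with medians of 4.04 and 30.9 TPM.

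Of 16 genes for ubiquitin-dependent mitotic exit, 6 were at least 2-fold lower in G1 cells. They were the conjugating enzyme *Ube2c*, the activators *Cdc20* (90.6 TPM in G1 cells and 241 TPM in G2/M cells) and *Fzr1* (19.6 TPM in G1 cells and 63.9 TPM in G2/M cells), the inhibitor *Fbxo5* (20.1 TPM in G1 cells and 51.7 TPM in G2/M cells), separase *Espl1* (9.899 TPM in G1 cells and 24.7 TPM in G2/M cells) and securin *Pttg1* (1.08 TPM in G1 cells and 4.49 TPM in G2/M cells). *Pttg1* was not past 2-fold with means of logs, with medians or with lysate wells (3.09 TPM, log2 −0.42 over G2/M cells). The other subunits of the complex ran from −0.79 for *Cdc27* to 0.39 for *Anapc11*, the one member with a higher mean in G1 cells. Of 20 condensin, cohesin and chromosome structure genes 5 were at least 2-fold lower: *Top2a*, the proliferation antigen *Mki67* (14.4 TPM in G1 cells and 54.8 TPM in G2/M cells) and the condensin I and shared condensin subunits *Smc4* (−1.27), *Ncapg* (−1.20) and *Ncaph* (−1.20). Cohesin differed less, with −0.56 for *Rad21*, −0.39 for *Smc1a* and −0.10 for *Smc3*, and the cohesin regulator *Pds5a* averaged 125 TPM in G1 cells, 159.9 TPM in S cells and 146 TPM in G2/M cells.

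How far a gene had climbed by S phase set the mitotic genes apart from each other. For the 107 genes of at least 10 TPM that were 2-fold lower in G1 cells, the S mean stood a median of 31.5% of the way between the G1 and the G2/M mean (quartiles 20.2% and 50.5%), and 29 of them were past the midpoint. Early climbers were the kinesin *Kif15* (11.9 TPM in G1 cells, 25.6 TPM in S cells and 25.8 TPM in G2/M cells), *Ncapg* (24.8 TPM in G1 cells, 50.7 TPM in S cells and 58.2 TPM in G2/M cells), the cohesin protector *Sgol1* (10.6 TPM in G1 cells, 21.8 TPM in S cells and 25.8 TPM in G2/M cells) and *Kif11* (10.5 TPM in G1 cells, 36.6 TPM in S cells and 52.2 TPM in G2/M cells). Late ones were *Plk1* (20.6 TPM in G1 cells, 27.9 TPM in S cells and 131 TPM in G2/M cells), the cytokinesis kinesin *Kif23* (9.78 TPM in G1 cells, 11.4 TPM in S cells and 36.03 TPM in G2/M cells), *Tpx2*, the activator of Aurora A (34.9 TPM in G1 cells, 43.8 TPM in S cells and 108.7 TPM in G2/M cells), and *Ube2c* (14.1 TPM in G1 cells, 37.6 TPM in S cells and 199.6 TPM in G2/M cells). In 2 of the 107 genes the S mean was below the G1 mean: *Cdc20* (90.6 TPM in G1 cells, 69.3 TPM in S cells and 241 TPM in G2/M cells) and *Cenpa*, the centromeric histone H3 (44.3 TPM in G1 cells, 41.1 TPM in S cells and 154 TPM in G2/M cells). *Ccnb2*, which was not past 2-fold, followed the same order (35.9 TPM in G1 cells, 24.6 TPM in S cells and 63.9 TPM in G2/M cells). By medians over cells *Cdc20* and *Cenpa* turned round between G1 and S: *Cdc20* stood at 40.2 TPM in G1, 59.7 TPM in S and 243 TPM in G2/M cells, and *Cenpa* at 19.96 TPM in G1, 32.1 TPM in S and 152 TPM in G2/M cells, so the higher G1 means came from a part of the G1 cells. *Ccnb2* kept its order by medians (27.6, 20.4 and 58.99 TPM in G1, S and G2/M cells).

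**Figure D3:**
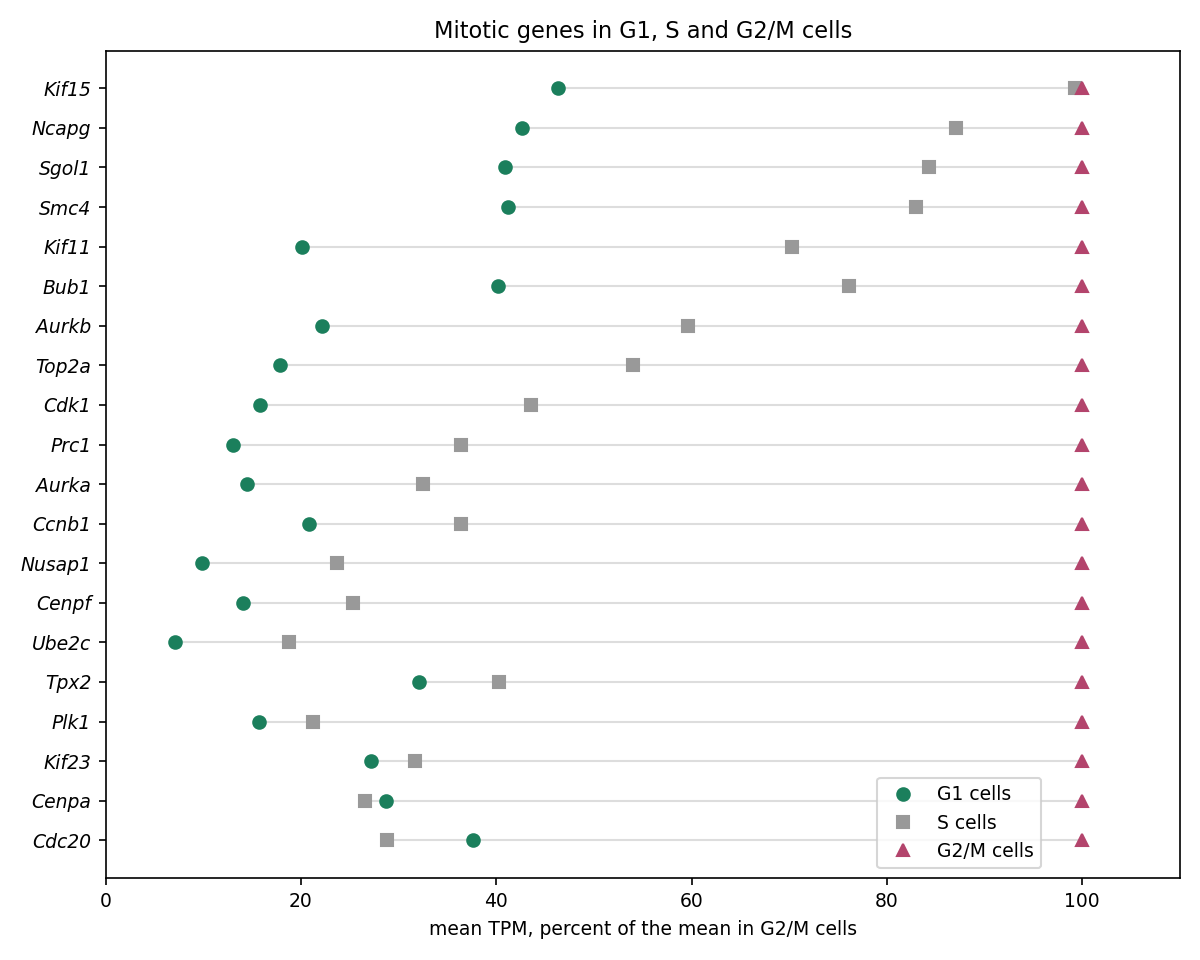
Mean TPM of 20 mitotic genes in G1 cells (circles), S cells (squares) and G2/M cells (triangles), each as percent of the gene's G2/M mean, ordered by how far the S mean lies between the other means. *Kif15* in S cells is near its G2/M level (25.6 against 25.8 TPM), and *Cenpa* and *Cdc20* have a lower mean in S cells than in G1 cells, an order that turns round by medians (*Cenpa* 19.96 TPM in G1 cells and 32.1 TPM in S cells).

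G1 cells were not alike in their mitotic mRNAs. *Cdc20* in G1 cells had quartiles of 24.95 and 132 TPM around a median of 40.2 TPM, and 11 of 93 lay above the G2/M median of 243 TPM. *Cenpa* had quartiles of 12.1 and 60.2 TPM with a highest cell at 228 TPM, and *Plk1* 2.98 and 18.05 TPM with a highest cell at 143 TPM. The same G1 cells tended to be high in these genes: over 93 G1 cells rho was 0.77 between *Cdc20* and *Cenpa*, 0.80 between *Cenpa* and *Ccnb2*, and 0.68 between *Cdc20* and *Plk1*. Another set of genes varied together apart from them. *Top2a*, *Cdk1*, *Aurkb* and the licensing gene *Cdc6* had pairwise rho of 0.60 to 0.73 in G1 cells, against −0.12 to 0.22 (median −0.01) for the 16 pairs across the sets. Outside G1 the *Top2a* set was looser as a whole. Its pairs had a median rho of 0.21 in S cells and 0.24 in G2/M cells, against 0.24 and 0.46 across the sets. The lowest values were those of *Cdc6* with the other members, −0.10 to 0.06 in S cells and −0.24 to 0.13 in G2/M cells. *Top2a* and *Cdk1* had rho of 0.42 in S cells and 0.71 in G2/M cells. *Aurkb* had rho of 0.35 and 0.39 with *Top2a* and *Cdk1* in S cells, and 0.34 and 0.36 in G2/M cells. The pairs of the *Cdc20* set had a median of 0.69 in G1, 0.32 in S and 0.76 in G2/M cells. *Ung* had rho of 0.54 with *Cdc6* and −0.16 with *Cdc20* in G1 cells. Both sets were picked after their values were seen, the cells share one scale, and the values are descriptions.

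**Figure D4:**
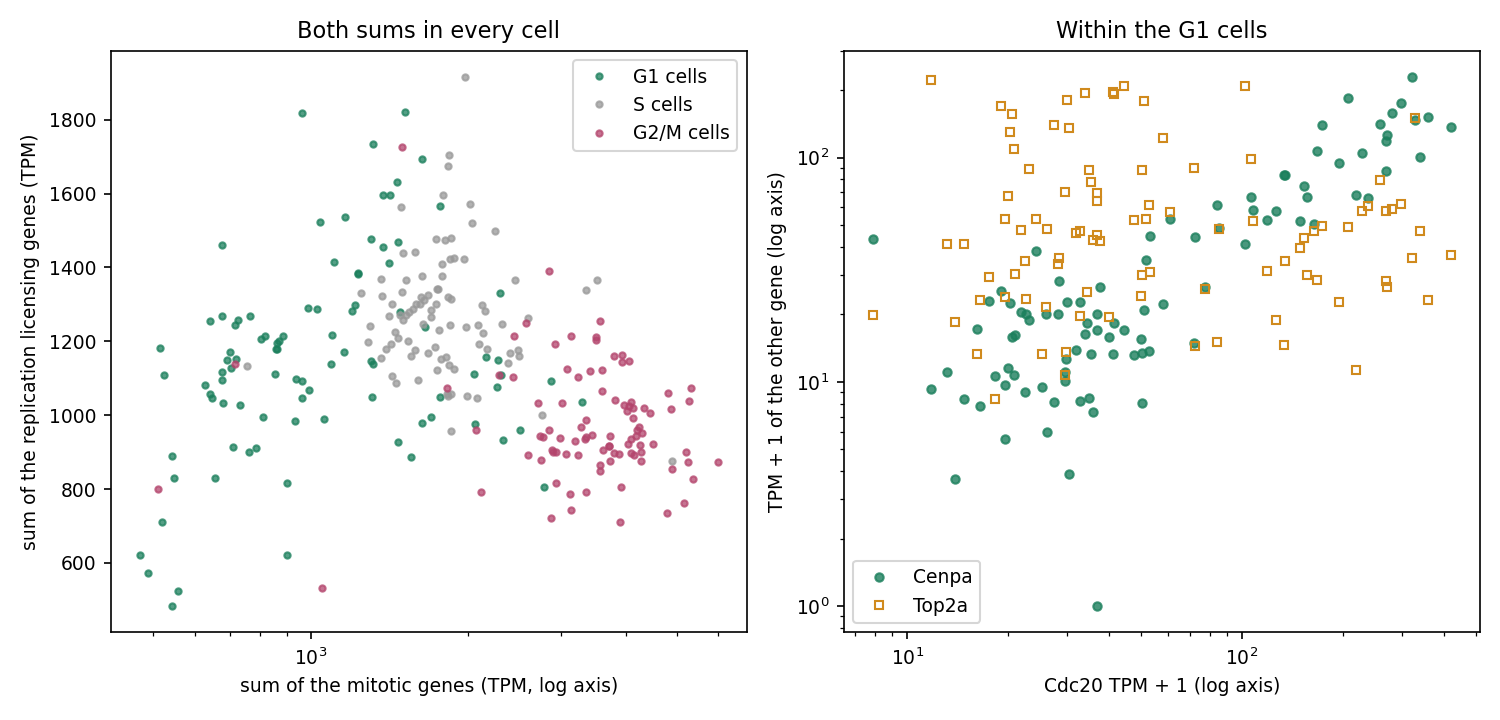
Left, the summed TPM of the 58 mitotic genes (log axis) against that of the 23 replication licensing genes in every G1, S and G2/M cell. Right, *Cenpa* (circles) and *Top2a* (squares) against *Cdc20* in the 93 G1 cells, TPM + 1 on log axes: *Cenpa* runs with *Cdc20* (rho 0.77) and *Top2a* does not (rho 0.02).

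The promoters of the genes lower in G1 cells held the letters of known cell cycle elements more often than those of all genes. RefSeq promoters of GRCm38.p6, from 250 bases before to 50 after a start site, were matched to 11088 of the 20773 genes and to 93 of the 163 lower ones, and read on both strands. TTTGAA, the core of the cell cycle homology region, was found in 64.5% of the 93 and 11.8% of all. CCAAT, the NF-Y box, was found in 70.97% and 38.5%, and both together in 53.8% and 4.98%. CCAAT alone was also frequent in lists not lower in G1 cells, with 61.1% of licensing and 55.2% of DNA synthesis promoters. It was found in 58.3% of kinetochore and chromosomal passenger promoters. Pluripotency genes (31.25%) and cytoplasmic ribosomal protein genes (30.99%) had it less often than all genes. Spindle and cytokinesis genes had TTTGAA in 19 of 22 promoters, and mitotic cyclins and kinases had CCAAT in all 11. The E2F letters TTCCCGC or TTGGCGC were found in 9 of 18 licensing promoters (50%) and 15 of 29 DNA synthesis promoters (51.7%), against 12.2% of all and 13.98% of the genes at least 2-fold lower in G1 cells. They were also frequent in lists that lean away from G1: condensin, cohesin and chromosome structure genes, all with a lower mean in G1 cells, held them in 11 of 16 promoters (68.8%), the highest share of the lists, and centriole and centrosome genes in 4 of 8. A match is a run of letters and not a bound site, and E2F letters can overlap CCAAT where TTGGCGC meets it on the other strand.

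Windows of 4 genes lower in G1 cells and of *Mcm6*, higher in G1 cells, are printed to show how these letters lie near the start site. Each runs 5′ to 3′ on the strand of its gene, with every match to the 4 motifs on either strand in capitals: *Ube2c* chr2:164769679-164769978 (plus strand), *Ccnb1* chr13:100786437-100786736 (minus), *Plk1* chr7:122159185-122159484 (plus), *Cdk1* chr10:69352863-69353162 (minus) and *Mcm6* chr1:128359656-128359955 (minus).
Ube2c: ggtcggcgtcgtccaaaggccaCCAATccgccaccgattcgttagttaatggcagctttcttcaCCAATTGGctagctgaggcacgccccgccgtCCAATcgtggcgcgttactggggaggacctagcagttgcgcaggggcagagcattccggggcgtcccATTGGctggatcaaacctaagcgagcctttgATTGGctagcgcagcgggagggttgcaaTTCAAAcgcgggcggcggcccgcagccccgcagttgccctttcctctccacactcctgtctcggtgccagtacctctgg
Ccnb1: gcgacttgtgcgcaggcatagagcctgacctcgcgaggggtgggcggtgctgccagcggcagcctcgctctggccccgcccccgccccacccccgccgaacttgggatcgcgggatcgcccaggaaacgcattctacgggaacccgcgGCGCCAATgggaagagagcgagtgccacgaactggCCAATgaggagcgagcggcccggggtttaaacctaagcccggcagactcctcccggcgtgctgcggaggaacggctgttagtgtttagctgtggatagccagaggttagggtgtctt
Plk1: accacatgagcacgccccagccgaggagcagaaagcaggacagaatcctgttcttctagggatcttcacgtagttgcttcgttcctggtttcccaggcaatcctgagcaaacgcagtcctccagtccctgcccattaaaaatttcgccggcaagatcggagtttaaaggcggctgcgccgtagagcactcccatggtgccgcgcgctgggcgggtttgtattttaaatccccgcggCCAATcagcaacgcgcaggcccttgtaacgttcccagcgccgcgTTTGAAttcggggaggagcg
Cdk1: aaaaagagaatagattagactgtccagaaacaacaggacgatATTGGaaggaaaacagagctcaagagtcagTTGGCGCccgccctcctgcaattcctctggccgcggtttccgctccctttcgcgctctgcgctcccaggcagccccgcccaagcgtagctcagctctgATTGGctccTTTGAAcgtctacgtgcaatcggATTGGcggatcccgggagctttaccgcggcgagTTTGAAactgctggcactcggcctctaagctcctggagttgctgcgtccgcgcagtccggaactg
Mcm6: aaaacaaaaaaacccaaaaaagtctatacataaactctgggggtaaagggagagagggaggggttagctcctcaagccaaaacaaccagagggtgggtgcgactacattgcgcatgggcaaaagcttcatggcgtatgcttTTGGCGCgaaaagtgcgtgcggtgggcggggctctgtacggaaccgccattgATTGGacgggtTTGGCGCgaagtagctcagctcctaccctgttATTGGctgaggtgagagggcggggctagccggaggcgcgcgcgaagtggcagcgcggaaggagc
*Ube2c*, the gene with the largest difference, held 6 CCAAT matches and 1 TTTGAA match, with the TTTGAA match beginning 29 bases before the start. Of its CCAAT matches 2 overlap in 1 stretch, CCAATTGG, read on both strands. *Plk1* held 1 of each, with the TTTGAA match past the start, beginning at base 31 counted from it. *Cdk1* held 3 CCAAT, 2 TTTGAA and 1 TTGGCGC, all before the start. *Ccnb1* held 2 CCAAT matches, 1 of them overlapping TTGGCGC on the other strand, and no TTTGAA. *Mcm6* held 2 TTGGCGC and 2 CCAAT matches and no TTTGAA.

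**Figure D5:**
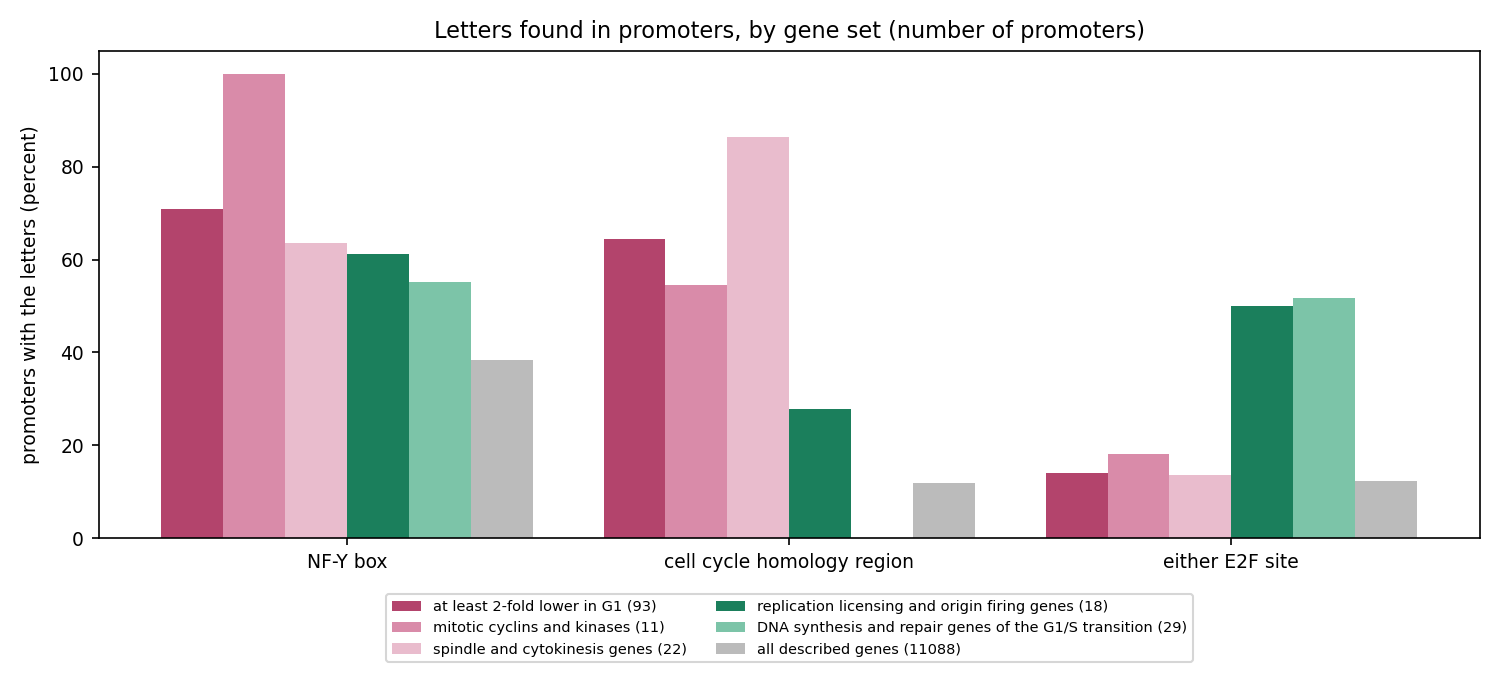
Percent of RefSeq promoters with CCAAT (NF-Y box), TTTGAA (cell cycle homology region) or either E2F site, by gene set (number of promoters in brackets). TTTGAA was found in 64.5% of the promoters of genes lower in G1 cells against 11.8% of all, and the E2F letters in 50% of licensing promoters against 12.2% of all. The condensin, cohesin and chromosome structure list, with E2F letters in 68.8% of its promoters, is not drawn.

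Other parts of the division machinery were lower in G1 cells by smaller amounts. All 12 centriole and centrosome genes had a lower mean in G1 cells, against 68.98% of all genes (list median −0.43, none past 2-fold), led by the centriole duplication genes *Stil* (4.28 TPM in G1 cells and 9.29 TPM in G2/M cells) and *Plk4* (18.98 TPM in G1 cells and 32.6 TPM in G2/M cells). Of 18 nuclear lamina and envelope genes 16 had a lower mean, against 68.98% of all genes (list median −0.28), with *Nup35* of the nuclear pore at 18.9 TPM in G1 cells and 27.5 TPM in G2/M cells and lamin B1, *Lmnb1*, at 74.2 TPM in G1 cells and 100.6 TPM in G2/M cells. Of the histone variants, *H2afx*, which marks DNA breaks when phosphorylated, was −1.62 on the log2 scale (14.3 TPM in G1 cells, 30.9 TPM in S cells and 46.1 TPM in G2/M cells), while the other 8 variants lay between −0.34 and 0.09.

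Genes of ES cell identity differed little. Of 23 pluripotency genes described none was past 1.5-fold, and the list median was −0.02. *Pou5f1* averaged 226 ± 60.7 TPM in G1 cells and 179 ± 47.7 TPM in G2/M cells (log2 0.34, pair share 72.5%), the largest pair share of the list toward G1. *Nanog* averaged 163 ± 81.1 TPM in G1 cells and 153 ± 63.7 TPM in G2/M cells, with a pair share of 51.2% and a spread within each phase wider than the difference. *Trh* (185 TPM in G1 cells, 87.1 TPM in S cells and 146 TPM in G2/M cells) and *Dppa4* (40.4 TPM in G1 cells and 51.03 TPM in G2/M cells) marked the ends of the list. Of 11 primitive endoderm markers described none was past 2-fold, and *Sparc*, a matrix protein, was highest toward G1 (59.3 TPM in G1 cells and 36.4 TPM in G2/M cells). None of the 11 markers of the 2-cell-like state passed the minimum, and of 14 epiblast and early lineage markers 9 did, with none past 1.5-fold.

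CDK inhibitors and p53 targets (median −0.08), immediate early and stress genes (0.10) and Id genes and BMP targets (0.15) had no member past 2-fold. For the 6 immediate early and stress genes of at least 10 TPM the median was −0.04. The sum of that whole list was lower in G1 cells, with means of 1006 TPM in G1 and 1193 TPM in G2/M cells (pair share 34.9%). *Cdkn1a*, encoding p21, averaged 18.9 ± 21.2 TPM in G1 cells and 17.7 ± 17.6 TPM in G2/M cells. *Myc* averaged 5.74 TPM in G1 cells, 1.59 TPM in S cells and 3.16 TPM in G2/M cells, its lowest mean being in S cells, and *Klf6* 5.07 TPM in G1 cells, 5.54 TPM in S cells and 10.01 TPM in G2/M cells. Glycolysis genes leaned toward G1 by a small amount (11 of 13 with a higher mean, against 31.02% of all genes, median 0.17, none past 1.5-fold), with *Pgk1* at 75.5 TPM in G1 cells and 60.1 TPM in G2/M cells and *Pfkp*, against the rest, at 139 TPM in G1 cells and 190.3 TPM in G2/M cells. The 93 cytoplasmic ribosomal protein genes had a median of 0.01. Of 35 mitochondrial genome genes described 31 had a lower mean in G1 cells, against 68.98% of all genes (list median −0.28), and this genome took a median of 5.52% of the TPM in G1 cells, 6.81% in S cells and 6.53% in G2/M cells. The nuclear noncoding RNA *Malat1* averaged 831 TPM in G1 cells, 1368 TPM in S cells and 1402 TPM in G2/M cells (log2 −0.75, pair share 13.9%), the largest difference of its list, while *Neat1* averaged 70.1 TPM in G1 cells and 55.3 TPM in G2/M cells.

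The make-up of the RNA differed between the phases by a few percentage points. Transcripts of protein-coding genes took a median of 37.2% of the TPM in G1 cells and 39.4% in G2/M cells. Genes annotated as miRNA took 27.7% and 25.2%, nearly all from *Mir6236* (chr9:110281287-110281409), a 123-base entry that alone held 24.6% in G1 cells and 22.3% in G2/M cells. Such short entries weigh heavily in TPM, which divide by length, and what they lose or gain shifts all other genes. Retained-intron transcripts had a median log2 fold of −0.03 (11905 transcripts) and protein-coding ones −0.08 (27535). Of the 34 mitotic genes of at least 10 TPM with a retained-intron model, 22 had a larger share of their TPM in it in G1 cells and 12 a smaller one, against 2113 and 1331 of all such genes. Longer genes were somewhat lower in G1 cells. By genomic span, the median log2 fold was −0.06 under 10 kb, −0.10 for 10 to 50 kb, −0.15 for 50 to 100 kb, −0.20 for 100 to 500 kb and −0.22 for the 116 genes over 500 kb. Detected genes per cell moved in the same direction (lower in G1 cells), and their part in this order was not tested.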

How the data were processed

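The authors trimmed the RamDA-seq reads with fastq-mcf and estimated transcript levels with Sailfish 0.9.2 on GENCODE vM9 (mm10); they deposited TPM per transcript and cell, here 378 of the 751 columns of 1 table. The authors also deposited estimated counts, here of 3 bulk rRNA-depleted and 3 RamDA-seq 10 pg libraries drawn to the same number of reads, which were used only as values beside a few genes. Transcript TPM were summed by gene name (118 names join several gene IDs) with Python 3.11.15, pandas 2.3.3, NumPy 2.4.6 and SciPy 1.17.1.

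Genes with at least 1 TPM in at least 10% of the 186 cells were described. The fold is log2 of (mean TPM in G1 cells + 1) over (mean TPM in G2/M cells + 1); the pair share is the percent of G1 and G2/M pairs in which the G1 cell was higher. Each phase being 1 sample, no test was run. The functions were tested on simulated data. Named were list members, markers, and the 15 genes with the largest fold in each direction of at least 10 TPM (mean of both phase means) with a pair share of at least 65% or at most 35%, and the 5 genes most alike *Ung* and *Mcm6* by Spearman's rho; other genes were named after their values were seen. One gene that the rule names is not reported here. The members and lists were chosen with earlier results of these data known. For promoters, the RefSeq window nearest the most abundant protein-coding transcript was used. The study left 5 cells, S cells among them, out of its diffusion map of the cell cycle data as outliers. It also describes removing cells with few uniquely mapped reads or a high ratio of rRNA reads. None of these cells was identified here, and all cells were kept. The alternatives tried were another pseudocount, means of logs, medians, trimmed means, cells low in detected genes left out, rescaled TPM, other filters, 1.5-fold, and lysate wells in place of G1 cells.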

Additional observations from a re-analysis of the deposited data

Results flagged for a closer look

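Among 32 genes named for the largest differences or as markers, 2 had a highest well far from the other 8 wells of pooled G1 lysate. *Ung* stood at 83.01 TPM in that well, with the median well at 53.3 TPM, and *Plk1* at 27.5 TPM, with the median well at 13.2 TPM. Chance flags about 1 group in 20. In G2/M cells *Ung* averaged 16.6 TPM and *Plk1* 131 TPM.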

How the results depend on the processing

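The counts of genes past 2-fold (13 higher and 163 lower in G1 cells) depend on the scale. With a pseudocount of 0.1 TPM they were 63 and 423, with median TPM over cells 57 and 425, and with wells of pooled G1 lysate in place of G1 cells 144 and 589. At 1.5-fold they were 137 and 613, and with a mean of at least 10 TPM 4 and 107. Without a filter 23 genes were higher, and after rescaling without *Mir6236* and *Gm15662*, an alternative chosen after seeing the data, 26 were higher. The causes were not tested, but the loose fold and the smaller set of genes act by construction. Of the 163 lower genes, 131 were also lower with lysate wells and 136 with medians; of the 13 higher genes, 2 and 4. The other settings left both counts within 1.5 times, but not always the same genes. With means of logs 10 genes were higher, 6 of them among the 13, and 174 lower, 136 of them among the 163. All 183 alternative medians of 23 gene lists stayed within 1.5-fold of the reported one. Of 959 alternative folds of 120 named genes, 30 moved by more than that. No named gene past 2-fold turned to the other direction, but with medians the log2 fold of mt-Ta was 0. Also no longer past 2-fold were *Hist1h2af*, *mt-Ta* and *Pttg1* with means of logs, *Tnf*, *Il6*, *Igkv1-110* and *Pttg1* with medians, *Igkv1-110* with trimmed means, *mt-Ta* without cells low in detected genes, and *Tnf*, *Il6*, *Igkv1-110*, *Sgol1*, *Hist1h2af* and *Pttg1* with lysate wells. With lysate wells the log2 fold of Tnf was 0.32, the log2 fold of Il6 0.41, the log2 fold of Setd1a 0.18, the log2 fold of Hprt 0.23 and the log2 fold of Rpl17-ps5 −0.41. With medians the log2 fold of Plk1 was −3.80, the log2 fold of Cdc20 −2.57, the log2 fold of Cenpa −2.87 and the log2 fold of Rpl17-ps5 2.35. No paired analysis was possible because the well names of the cells mark only positions on plates and each phase is 1 sample. TPM carry no depth, so a difference between low genes cannot be told from sampling.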

Other observations

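The unsorted 0 h cells, which hold all phases and come from another experiment of the series, lay outside the range of the 3 phase means for several gene groups. The 68 replication-dependent histone genes summed to a mean of 1866 TPM in 0 h cells, against 739 TPM in G1 cells, 1294 TPM in S cells and 546 TPM in G2/M cells. Glycolysis genes summed to 7926 TPM in 0 h cells, against 4630.3 TPM in G1 cells, 4305 TPM in S cells and 4146 TPM in G2/M cells. The G1 cyclin, E2F and Rb family genes summed to 1132 TPM in 0 h cells, against 748 TPM in G1 cells, 814 TPM in S cells and 744 TPM in G2/M cells, with *Ccne1*, cyclin E1, at 45.1 TPM in 0 h cells. CDK inhibitors and p53 targets went the other way and summed to 219 TPM in 0 h cells, against 369 TPM in G1 cells, 432 TPM in S cells and 394 TPM in G2/M cells. The experiment and the group cannot be told apart.

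Mitotic genes, by contrast, lay between the phases in 0 h cells. *Ccnb1* averaged 128 TPM there and *Ube2c* 73.8 TPM, and the 58 mitotic genes summed to 1843 TPM in 0 h cells, against 1177 TPM in G1 cells, 1841 TPM in S cells and 3549 TPM in G2/M cells. *Tnf*, *Il6* and *Ins2* averaged 16.8, 136 and 103.9 TPM in 0 h cells, below the means of all 3 phases.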
